A study of Mus musculus with 6 samples.

Results

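Hox genes encode homeodomain transcription factors that pattern the body from head to tail. In the mouse they lie in the HoxA, HoxB, HoxC and HoxD clusters, and genes with the same number in different clusters, called paralogs, descend from a common ancestor. Low numbers sit at the 3′ end of a cluster and act toward the head, high numbers sit at the 5′ end and act toward the tail, and adult vascular cells and fibroblasts keep part of the Hox code of the place where they arose. The Hox genes described here are those whose symbol in the deposited expression table is Hox followed by a cluster letter and a number. There were 26 of them among 18112 genes, 9 in HoxA, 10 in HoxB and 7 in HoxC. Hoxa6, Hoxa13, Hoxc11, Hoxc12 and the HoxD genes were not analysed here.

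RNA was sequenced from primary aortic smooth muscle cells of 2 genotypes on the C57BL/6 background, with 3 libraries per genotype. Smyd2 fl/fl mice carry loxP sites around exon 2 in both copies of Smyd2, a gene for a lysine methyltransferase, and were the littermate controls. Smyd2 SMC-/- mice carry the same floxed alleles and in addition a Tagln-Cre transgene, in which the SM22α promoter drives Cre in smooth muscle and is also known to be active in some other cell types. The study compared the genotypes to learn how loss of SMYD2 alters smooth muscle cells. The mice were 8 to 10 weeks old, and cells were grown from the medial layer of the thoracic aorta after the endothelium and the tissue around the vessel had been removed. The labels give cells at passage 6 in medium with 10% serum, whereas the methods of the study give passage 4 with overnight starvation and another extraction reagent, and which of them applies to these libraries is not known. The labels do not say that replicates came from separate animals or cultures, so p-values measure the spread between these libraries, which may be technical.

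Values are FPKM, in which the fragments of each gene are divided by transcript length and by library size, and levels of different genes are compared on this scale only. Each library held roughly 17400000 to 19900000 fragments, an estimate made from the spacing of the lowest FPKM values. At that depth 1 fragment on a transcript of 2000 bases is worth 0.0261 to 0.0299 FPKM. Values of libraries are given in the order of replicates 1, 2 and 3. The targeted gene, Smyd2 (NCBI Gene 226830), was read at 7.87, 3.10 and 3.0 FPKM in the fl/fl libraries and at 1.67, 0.40 and 0.80 FPKM in the SMC-/- libraries. It was lower in SMC-/- without overlap, although some RNA read as Smyd2 remained. These values are of the whole gene, of which the loxP sites flank 1 exon only. The log2 fold change was -1.48 ± 0.389 (SE), with an adjusted p of 0.105 by limma, and 0.0189 when the replicate number was a block (0.00126 to 0.305 over 14 alternatives). Fold changes throughout are those of FPKM + 1, SMC-/- minus fl/fl, a scale that understates the change of low genes.

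The smooth muscle label was met in part. Of 7 smooth muscle markers, Acta2 (smooth muscle α-actin) was the most abundant at 761, 682 and 683 FPKM in Smyd2 fl/fl, and it was 201, 268 and 262 FPKM in Smyd2 SMC-/-. Acta2 fell, with a log2 fold change of -1.55 ± 0.153 (SE, adjusted p = 0.00803 by limma), and it was lower in SMC-/- in all 3 pairs of libraries with the same replicate number. Tagln, the second most abundant, had 80.5, 79.1 and 70.3 FPKM in fl/fl and 12.5, 87.3 and 57.1 FPKM in SMC-/-, and overlapped between genotypes. Myh11, the defining myosin of contractile smooth muscle, was at or below 0.22 FPKM in every library, and Des was at or below the same value. Acta2 was the 1 marker of 5 tested that passed the test, with or without the replicate number as a block. Its adjusted p was 0.0541 without fl/fl replicate 2, 0.0615 without fl/fl replicate 3 and 0.0533 without SMC-/- replicate 3 (0.000241 to 0.0615 over 14 alternatives). Of the other tested markers, Tagln, Cnn1 and Smtn had log2 fold changes of -0.92, -0.91 and -0.05, and Lmod1 of 0.24. In replicates 2 and 3 alone, Lmod1 was higher (log2 fold change 0.83, adjusted p = 0.00335 by limma). There Tagln, Cnn1 and Smtn did not pass, with log2 fold changes of -0.08, -0.07 and 0.05.

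Hox RNA was most abundant in the middle of the clusters, as the plot of levels in each library shows. Paralog groups 4 to 8 summed to 321, 232 and 233 FPKM in fl/fl and 338, 129.98 and 145 FPKM in SMC-/-. Groups 1 to 3 summed to 111, 77.6 and 83.2 FPKM and 83.02, 46.1 and 51.1 FPKM, and groups 9 to 13 to 47.5, 35.2 and 34.6 FPKM and 41.5, 12.2 and 11.9 FPKM. All of these sums overlapped between genotypes. By mean FPKM, the order in HoxA was Hoxa7, Hoxa3 and Hoxa5 in both genotypes. In HoxB it was Hoxb6, Hoxb3 and Hoxb8 in fl/fl (34.1, 27.3 and 24.6 FPKM), with the same order in each library. In SMC-/- it was not the same in every library, with Hoxb6, Hoxb8 and Hoxb9 in replicate 1 (48.9, 36.7 and 29.1 FPKM) and Hoxb7, Hoxb6 and Hoxb8 in replicates 2 (16.3, 14.5 and 12.99 FPKM) and 3 (17.04, 14.5 and 13.1 FPKM). In HoxC, Hoxc6 led in both genotypes, followed in fl/fl by Hoxc4 (5.73 FPKM) and Hoxc8 (2.71 FPKM, under Hoxc5 in replicate 1) and in SMC-/- by Hoxc8 (17.1 FPKM) and Hoxc4 (5.96 FPKM). At the 5′ end, Hoxa11 was read in fl/fl replicate 1 only, at 0.07 FPKM, Hoxb13 had 0.04, 0.08 and 0 FPKM in fl/fl and 0.56, 0 and 0 FPKM in SMC-/-, and at the 3′ end Hoxb1 was read in SMC-/- replicate 2 only, at 0.03 FPKM. With Hoxc13, these genes were left out of the test, which took genes that averaged at least 0.5 FPKM, so 22 of the 26 members were tested.

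**Figure D1:**
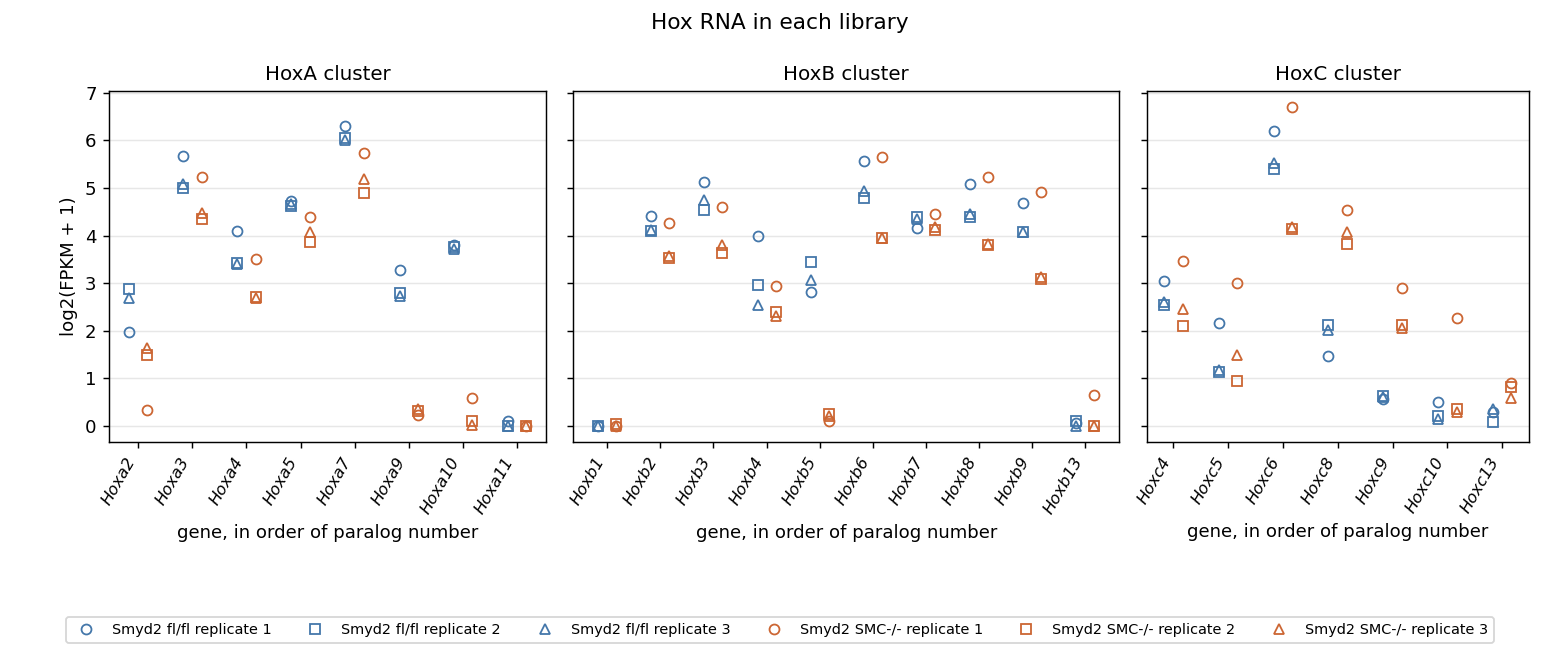
Level of Hox genes, as log2(FPKM + 1), in the 3 Smyd2 fl/fl libraries (blue) and the 3 Smyd2 SMC-/- libraries (orange), by cluster and paralog number. Hoxa9, Hoxa10 and Hoxb5 lie near 0 in the SMC-/- libraries, and Hoxc8 and Hoxc9 lie higher in them than in any fl/fl library.

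Smyd2 SMC-/- cells differed from Smyd2 fl/fl cells in which Hox genes were read. Hoxa9, Hoxa10 and Hoxb5 were nearly absent from Smyd2 SMC-/- cells, while Hoxc8 and Hoxc9 rose. The 3 genes that fell passed the filter on low values only through fl/fl, as their SMC-/- means were 0.233, 0.197 and 0.140 FPKM. By limma, 3 of 22 tested members were lower at an adjusted p under 0.05, where 152 of all 12565 genes tested (1.21%) were, and 2 were higher, where 154 of all genes (1.23%) were. With the replicate number as a block, 8 members were lower (5.72% of all genes, 719 genes) and 2 were higher (4.72% of all genes, 593 genes). The block added Hoxa2, Hoxa3, Hoxa4, Hoxa7 and Hoxb3. Without regard to a test, every SMC-/- library was below every fl/fl library in 6 tested members (15.0% of all genes) and above in 2 (13.1% of all genes). In replicates 2 and 3 alone, 14 members were lower and 2 higher, with 2156 and 1494 of all genes. The counts moved with single libraries. Without SMC-/- replicate 1, 8 members were lower and 2 higher, with 313 and 373 of all genes. The number of members higher was 1 without fl/fl replicate 1 or SMC-/- replicate 2, and 0 without fl/fl replicate 2, fl/fl replicate 3 or SMC-/- replicate 3, while 3 members were lower in each of these fits. Of all genes, 16 were lower and 18 higher without fl/fl replicate 2, 20 and 16 without fl/fl replicate 3, 28 and 27 without SMC-/- replicate 2, and 21 and 18 without SMC-/- replicate 3. At a fold change over 2 with an adjusted p under 0.01, 3 members were lower (0.207% of all genes) and 0 higher (0.215% of all genes) by limma.

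The median log2 fold change was -0.57 over the 22 tested Hox genes and -0.02 over all genes tested. It was -0.76 over 8 genes of HoxA, -0.57 over 8 genes of HoxB and 0.51 over 6 genes of HoxC. Along the clusters, the median was -0.56 for paralog groups 1 to 3 (5 genes), -0.56 for groups 4 to 8 (12 genes) and -0.57 for groups 9 to 13 (5 genes). The HoxC median includes Hoxc10, which passed the filter on low values only through SMC-/- replicate 1, and without that library it was -0.11, with -0.94 for HoxA and -0.95 for HoxB. Along the clusters the medians without it were -0.84, -0.82 and -1.18, and that of all tested Hox genes was -0.83. Other libraries moved the medians the other way. The median of all tested Hox genes was -0.34 without fl/fl replicate 1, -0.29 without SMC-/- replicate 2 and -0.30 without SMC-/- replicate 3. With the same 3 libraries left out in turn, it was -0.33, -0.29 and -0.30 for HoxB, 0.73, 0.88 and 0.76 for HoxC, -0.35, -0.39 and -0.46 for groups 1 to 3, -0.27, -0.28 and -0.29 for groups 4 to 8, and -0.37, -0.26 and -0.28 for groups 9 to 13. Differences between these medians were not tested. Rescaling each library to TPM moved the median of all genes to 0.10, and gave 99 genes lower and 247 higher in place of 152 and 154. Fold changes were negative in 17 tested Hox members and positive in 5, and with TPM those of Hoxb7 and Hoxc4 turned positive.

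**Figure D2:**
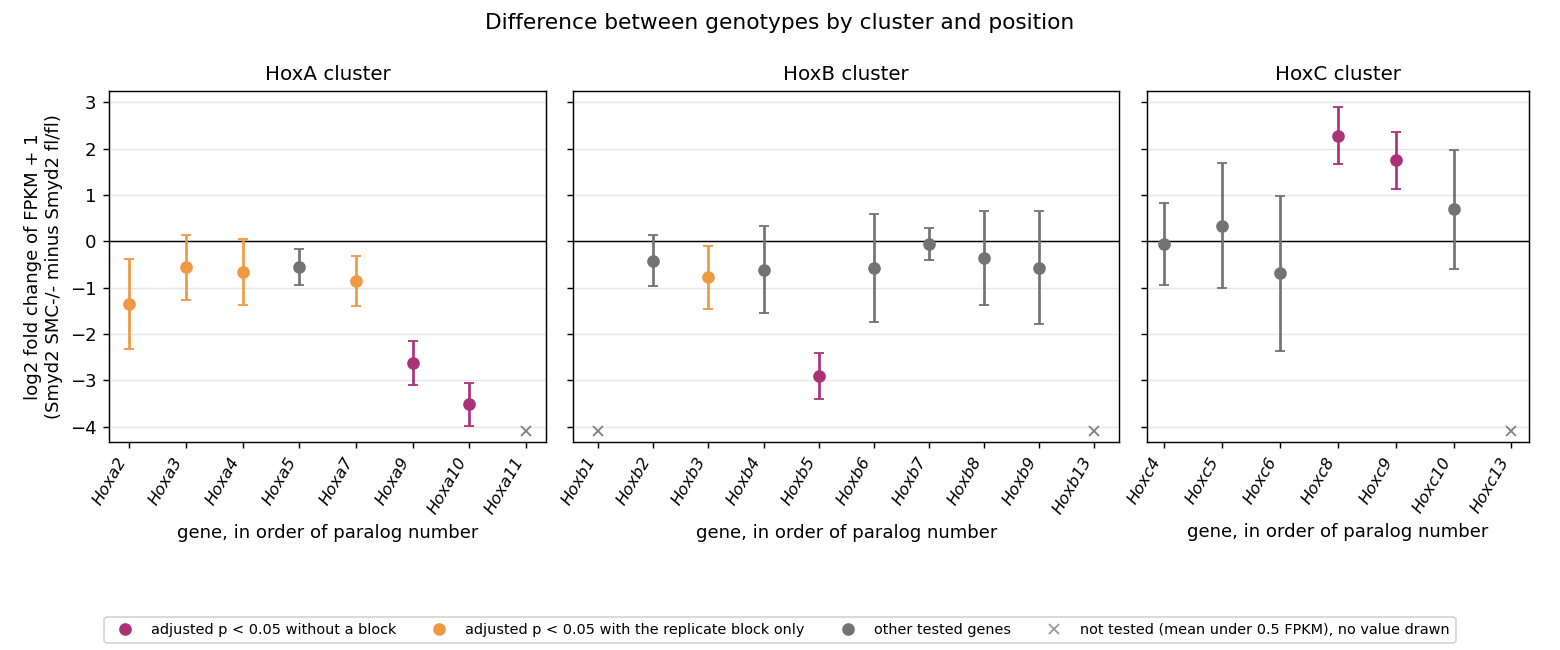
Log2 fold change of FPKM + 1 (Smyd2 SMC-/- minus Smyd2 fl/fl) of tested Hox genes with the 95% confidence interval from limma, by cluster and paralog number. Purple points passed an adjusted p of 0.05 without a block (Hoxa9, Hoxa10, Hoxb5, Hoxc8 and Hoxc9), orange points passed only with the replicate block, and crosses mark genes that were not tested.

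The fall in HoxA was deepest at adjacent genes near its 5′ end. Hoxa10 (NCBI Gene 15395), a gene of the lumbosacral skeleton and the reproductive tract, had 12.9, 12.5 and 12.2 FPKM in the fl/fl libraries and 0.50, 0.07 and 0.02 FPKM in the SMC-/- libraries. The means were 12.5 ± 0.326 and 0.197 ± 0.264 FPKM (SD, n = 3), and the 3 SMC-/- values correspond to about 21.7, 3.38 and 0.956 fragments on its longer transcript. Its log2 fold change was -3.52 ± 0.196 (SE), with an adjusted p of 0.00133 by limma. Hoxa9 (NCBI Gene 15405), known for its role in blood stem cells and in endothelium, had 8.74, 5.90 and 5.65 FPKM in fl/fl and 0.17, 0.24 and 0.29 FPKM in SMC-/-. The means were 6.76 ± 1.72 and 0.233 ± 0.0603 FPKM (SD, n = 3), and the log2 fold change was -2.63 ± 0.201 (SE, adjusted p = 0.00328 by limma). Both genes were lower in SMC-/- in all 3 same-numbered pairs with no overlap between genotypes. Each gave 0.1 in a two-sided exact permutation test, the smallest p that 3 libraries against 3 can reach. An adjusted p under 0.05 was found for Hoxa10, Hoxa9 and Hoxb5 in all 14 alternative settings, with log2 fold changes of -5.78 to -3.42, -4.35 to -2.42 and -5.04 to -2.75 in that order.

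On the GRCm38 assembly in the GENCODE M21 annotation, Hoxa9 spans 52223100 to 52231089 and Hoxa10 spans 52231197 to 52240854 on the minus strand of chromosome 6. Only 107 bases lie between their annotated ends, and their closeness leaves it uncertain how reads at the border were assigned. Hoxa7, on the other side of Hoxa9 at a distance of 1245 bases, still averaged 38.8 FPKM in SMC-/-. Because Hoxa9 and Hoxa10 fell together beside a gene that was still read, 300 bases around starts of the 3 genes are shown. Each window holds 250 bases before and 50 after a RefSeq start (GRCm38.p6, minus strand, 5′ to 3′). The windows of Hoxa7 and Hoxa9 lie inside their GENCODE spans and not at the 5′ ends of these, where Hoxa7 spans 52214491 to 52221854. Capitals mark matches to TATAAA or GGGCGG on either strand, so TATAAA on the opposite strand reads TTTATA.
Hoxa7, chr6:52218524-52218823: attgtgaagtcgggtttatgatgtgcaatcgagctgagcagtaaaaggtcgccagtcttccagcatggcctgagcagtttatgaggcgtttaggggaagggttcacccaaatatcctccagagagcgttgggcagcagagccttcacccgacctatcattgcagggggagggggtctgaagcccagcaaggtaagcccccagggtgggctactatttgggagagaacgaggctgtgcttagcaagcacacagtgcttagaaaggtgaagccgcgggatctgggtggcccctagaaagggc
Hoxa9, chr6:52227321-52227620: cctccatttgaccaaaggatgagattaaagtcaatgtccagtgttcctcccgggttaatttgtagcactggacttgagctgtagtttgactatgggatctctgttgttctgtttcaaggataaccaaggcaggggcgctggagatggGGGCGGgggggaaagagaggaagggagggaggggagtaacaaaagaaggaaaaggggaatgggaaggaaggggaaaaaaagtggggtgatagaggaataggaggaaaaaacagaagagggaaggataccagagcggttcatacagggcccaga
Hoxa10, upstream start, chr6:52240805-52241104: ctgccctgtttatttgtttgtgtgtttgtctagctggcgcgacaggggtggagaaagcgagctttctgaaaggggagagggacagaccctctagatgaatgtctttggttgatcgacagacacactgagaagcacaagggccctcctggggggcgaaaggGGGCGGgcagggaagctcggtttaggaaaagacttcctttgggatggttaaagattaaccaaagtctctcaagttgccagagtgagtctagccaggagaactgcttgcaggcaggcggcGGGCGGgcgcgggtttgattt
Hoxa10, downstream start, chr6:52234890-52235189: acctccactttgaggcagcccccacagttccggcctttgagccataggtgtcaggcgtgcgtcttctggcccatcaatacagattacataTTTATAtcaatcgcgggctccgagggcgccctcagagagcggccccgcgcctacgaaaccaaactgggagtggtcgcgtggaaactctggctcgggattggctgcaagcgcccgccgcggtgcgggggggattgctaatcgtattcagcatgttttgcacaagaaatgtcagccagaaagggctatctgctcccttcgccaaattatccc
The window of Hoxa9 holds 1 GGGCGG, the upstream start of Hoxa10 holds 2 and its downstream start holds 1 TATAAA on the opposite strand, while the Hoxa7 window holds neither motif. Of 32851 promoter windows of this length, 35.7% hold GGGCGG and 13.6% hold TATAAA. The homeodomain core TAATTA was found in 5.29% of all windows, TGATNNAT, a site for a Hox protein with a cofactor, in 8.85%, and the CArG box of serum response factor in 1.63%. None of these 3 was in the 4 windows shown. The promoter table held 12 windows for 11 of the 26 members, of which 4 held GGGCGG, 3 TGATNNAT and 2 TATAAA. A match is a description of letters and says nothing about binding. No window was at hand for Hoxb5, Hoxc8 and Hoxc9.

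Toward the 3′ end of HoxA the differences were smaller than those of Hoxa9 and Hoxa10. Over all 6 libraries, Hoxa7, Hoxa4, Hoxa3 and Hoxa2 passed only with a block, and Hoxa5 did not pass with the replicate block. Hoxa7, active in thoracic patterning, had 78.3, 65.3 and 63.2 FPKM in fl/fl and 51.8, 28.8 and 35.7 FPKM in SMC-/-, with no overlap. Its log2 fold change was -0.85 ± 0.226 (SE), with an adjusted p of 0.109 by limma, 0.0318 with the replicate block and 0.0270 without SMC-/- replicate 1 (0.00134 to 0.324 over 14 alternatives). Hoxa5, which acts in lung and cervicothoracic patterning, had 25.3, 23.6 and 24.2 FPKM and 20.1, 13.6 and 15.9 FPKM. It did not overlap between genotypes either, and its log2 fold change was -0.55 ± 0.162 (SE, adjusted p = 0.131 by limma). With the replicate block the adjusted p of Hoxa5 by limma was 0.0535, and without SMC-/- replicate 1 it was 0.0437 (0.00477 to 0.371 over 14 alternatives).

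Hoxa4 and Hoxa3, which pattern the neck vertebrae and the pharyngeal arch derivatives, were read at 16.1, 9.71 and 9.56 FPKM and 50.2, 30.8 and 32.8 FPKM in fl/fl. In SMC-/- they were read at 10.4, 5.57 and 5.47 FPKM and 36.5, 19.3 and 21.3 FPKM. Replicate 1 was the highest of its genotype for both genes, so the genotypes overlapped although the SMC-/- library was the lower one in each same-numbered pair. The log2 fold changes were -0.67 ± 0.298 and -0.56 ± 0.290 (SE), with adjusted p of 0.275 and 0.336 by limma and 0.0316 and 0.0346 with the replicate block. Over 14 alternatives the adjusted p was 0.00343 to 0.597 for Hoxa4 and 0.00449 to 0.653 for Hoxa3. Their fold changes were -0.44 and -0.35 without fl/fl replicate 1 and -0.93 and -0.84 without SMC-/- replicate 1. Hoxa3 is annotated across 44275 bases that contain Hoxa4 and Hoxa5 on the same strand, so the division of reads among the 3 genes is uncertain.

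Hoxa2, a gene of hindbrain and neural crest, had 2.94, 6.34 and 5.46 FPKM in fl/fl and 0.27, 1.82 and 2.11 FPKM in SMC-/-, without overlap. Here replicate 1 was the lowest library of each genotype. The log2 fold change was -1.36 ± 0.409 (SE, adjusted p = 0.136 by limma and 0.0217 with the replicate block, from 0.00101 to 0.344 over 14 alternatives).

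In HoxB, 1 gene in the middle of the cluster stood apart from its neighbours. Hoxb5 (NCBI Gene 15413), which has roles in the enteric nervous system and in vessel-forming precursors, had 5.99, 9.85 and 7.36 FPKM in fl/fl and 0.07, 0.19 and 0.16 FPKM in SMC-/-, the last of these worth about 2.22, 6.71 and 5.59 fragments. The means were 7.73 ± 1.96 and 0.140 ± 0.0624 FPKM (SD, n = 3). No SMC-/- library came near the lowest fl/fl library, and the log2 fold change was -2.92 ± 0.206 (SE, adjusted p = 0.00246 by limma, two-sided exact permutation p = 0.1). Hoxb5 spans 96303336 to 96306121 on the plus strand of chromosome 11, 1766 bases from Hoxb6 and 12145 bases from Hoxb4. An antisense gene, Hoxb5os, overlaps both Hoxb5 and Hoxb6, and whether reads were assigned by strand is not given in the sources used here, so the share of antisense RNA in these values is uncertain.

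The neighbours of Hoxb5 were read at higher levels than Hoxb5 in SMC-/-. Hoxb6 was the highest of the HoxB genes in every fl/fl library and in SMC-/- replicate 1, and Hoxb7 in SMC-/- replicates 2 and 3. Hoxb6 had 46.4, 26.5 and 29.5 FPKM in fl/fl and 48.9, 14.5 and 14.5 FPKM in SMC-/-. Its log2 fold change was -0.58 ± 0.488 (SE, adjusted p = 0.575 by limma, from 0.000926 to 0.880 over 14 alternatives). It was -1.14 without SMC-/- replicate 1 and -0.90 in replicates 2 and 3 alone, where the adjusted p was 0.000926, but -0.34 without fl/fl replicate 1, -0.30 without SMC-/- replicate 2 and -0.29 without SMC-/- replicate 3. For Hoxb4, a regulator of blood stem cell expansion, levels lay between 3.95 and 15.01 FPKM over the 6 libraries and the fold change was -0.61 ± 0.392 on the log2 scale (SE, adjusted p = 0.447 by limma, from 0.0617 to 0.736 over 14 alternatives), with -0.20 without fl/fl replicate 1 and -0.93 without fl/fl replicate 3. Hoxb8 had 32.9, 20.04 and 20.9 FPKM and 36.7, 12.99 and 13.1 FPKM, and its log2 fold change was -0.36 ± 0.421 (SE, adjusted p = 0.702 by limma, from 0.00409 to 0.953 over 14 alternatives). That of Hoxb8 was -0.83 without SMC-/- replicate 1 and -0.61 in replicates 2 and 3 alone (adjusted p = 0.00409 by limma), but -0.14 without fl/fl replicate 1 and -0.12 without SMC-/- replicate 2 or 3. In both Hoxb6 and Hoxb8 the highest value of all belonged to SMC-/- replicate 1, and the lowest to the other SMC-/- libraries.

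Hoxb3, known in angiogenesis, was read at 33.8, 22.2 and 25.8 FPKM in fl/fl and 23.3, 11.5 and 12.95 FPKM in SMC-/-. The genotypes overlapped through replicate 1, and the log2 fold change of -0.78 ± 0.287 (SE) had an adjusted p of 0.200 by limma, 0.0314 with the replicate block and 0.0448 without SMC-/- replicate 1 (0.00150 to 0.483 over 14 alternatives). Hoxb2 and Hoxb7 had log2 fold changes of -0.42 ± 0.231 and -0.05 ± 0.144 (SE) at levels of 10.5 to 20.2 FPKM and 16.3 to 20.8 FPKM, with adjusted p of 0.365 and 0.893 by limma. Over 14 alternatives the log2 fold change of Hoxb2 was -0.66 to -0.29, with an adjusted p of 0.00630 to 0.703 that was 0.0492 with replicate 1 blocked against the rest and 0.00630 in replicates 2 and 3 alone. The log2 fold change of Hoxb7 was 0.01 without SMC-/- replicate 2. Hoxb9, the most 5′ HoxB gene that was tested, had 24.6, 15.96 and 15.8 FPKM in fl/fl and 29.1, 7.47 and 7.69 FPKM in SMC-/-. It had a log2 fold change of -0.57 ± 0.508 (SE, adjusted p = 0.596 by limma, and 0.0465 without SMC-/- replicate 1, from 0.000635 to 0.894 over 14 alternatives). The fold change of Hoxb9 was -1.18 without SMC-/- replicate 1 and -0.97 in replicates 2 and 3 alone (adjusted p = 0.000635 by limma), but -0.37 without fl/fl replicate 1 and -0.26 and -0.28 without SMC-/- replicates 2 and 3.

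HoxC held the members that rose. Hoxc8 (NCBI Gene 15426), a gene of brachial and thoracic identity, had 1.76, 3.35 and 3.02 FPKM in fl/fl and 22.3, 13.1 and 15.9 FPKM in SMC-/-, so that its lowest SMC-/- value lay well above its highest fl/fl value. The means were 2.71 ± 0.839 and 17.1 ± 4.74 FPKM (SD, n = 3), and the log2 fold change was 2.28 ± 0.259 (SE, adjusted p = 0.0126 by limma). Hoxc9 (NCBI Gene 15427), a thoracic gene next to it, had 0.49, 0.55 and 0.53 FPKM and 6.50, 3.33 and 3.16 FPKM. Its means were 0.523 ± 0.0306 and 4.33 ± 1.88 FPKM (SD, n = 3), and its log2 fold change was 1.75 ± 0.259 (SE, adjusted p = 0.0270 by limma). Both genes were higher in SMC-/- in all 3 same-numbered pairs, with an exact two-sided permutation p of 0.1 each. The adjusted p of Hoxc8 was 0.0593 without fl/fl replicate 2, 0.0725 without fl/fl replicate 3 and 0.0734 without SMC-/- replicate 3. That of Hoxc9 was 0.0585, 0.129 and 0.129 without fl/fl replicates 1, 2 and 3, and 0.0935 and 0.0905 without SMC-/- replicates 2 and 3. Over 14 alternatives the adjusted p was 9.45e-05 to 0.0734 for Hoxc8, under 0.05 in 11, and 0.000376 to 0.129 for Hoxc9, under 0.05 in 9.

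Hoxc9 spans 102976439 to 102985099 and Hoxc8 spans 102990607 to 102994111 on the plus strand of chromosome 15, 5507 bases apart. The annotated span of Hoxc5, from 102967443 to 103017429, contains both of them and Hoxc6 and overlaps Hoxc10, so the division of reads among these genes is uncertain. Hoxc6, 4145 bases beyond Hoxc8, was the most abundant HoxC gene at 71.9, 41.1 and 44.7 FPKM in fl/fl and 103, 16.5 and 17.2 FPKM in SMC-/-. Its log2 fold change was -0.69 ± 0.696 (SE, adjusted p = 0.648 by limma, and 0.0350 without SMC-/- replicate 1, from 0.000147 to 0.925 over 14 alternatives), and SMC-/- replicate 1 was the highest of the 6 libraries. Without that library the fold change of Hoxc6 was -1.54, and in replicates 2 and 3 alone -1.30 (adjusted p = 0.000147 by limma), but it was -0.45 without fl/fl replicate 1 and -0.26 and -0.28 without SMC-/- replicates 2 and 3. Hoxc4 had 7.23, 4.86 and 5.10 FPKM and 10.1, 3.26 and 4.50 FPKM, Hoxc5 lay between 0.94 and 7.07 FPKM over the 6 libraries, and the log2 fold changes of Hoxc4 and Hoxc5 were -0.06 ± 0.366 and 0.33 ± 0.565 (SE, adjusted p = 0.953 and 0.801 by limma). The sign of Hoxc4 turned without fl/fl replicate 1 (0.10), SMC-/- replicate 2 (0.23) or SMC-/- replicate 3 (0.05), and that of Hoxc5 without SMC-/- replicate 1 (-0.26). At the 5′ end, Hoxc10 was at 0.41, 0.16 and 0.11 FPKM and 3.82, 0.28 and 0.23 FPKM, and it passed the filter on low values only through SMC-/- replicate 1. Its log2 fold change was 0.69 ± 0.534 (SE, adjusted p = 0.540 by limma), and 0.04 without SMC-/- replicate 1. Hoxc13, a gene of hair and nail, was under the filter at 0.23, 0.06 and 0.28 FPKM and 0.86, 0.76 and 0.51 FPKM, with no overlap between genotypes.

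Replicate 1 differed from replicates 2 and 3 in part of the Hox code, as the plot of differences within pairs shows. The difference in log2(FPKM + 1) was negative in all 3 same-numbered pairs for 11 of 22 tested members (29.3% of all genes) and positive in all 3 for 4 members (25.8% of all genes). In 6 members, Hoxb6, Hoxb7, Hoxb8, Hoxb9, Hoxc4 and Hoxc6, it was positive in replicate 1 and negative in replicates 2 and 3, where 16.1% of all genes were, and no member had the opposite pattern (7.04% of all genes). For Hoxc6 the difference was 0.51 in replicate 1 and averaged -1.30 in replicates 2 and 3, and for Hoxb9 it was 0.23 and -0.97. The genes that passed the test without a block kept their direction in both, with -3.21 and -3.68 for Hoxa10, -3.06 and -2.42 for Hoxa9, and -2.71 and -3.02 for Hoxb5. The rise was 3.08 and 1.88 for Hoxc8, and 2.33 and 1.46 for Hoxc9. Replicate 1 has 1 library per genotype and allows no test of its own, and whether the pairs differ was not tested.

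**Figure D3:**
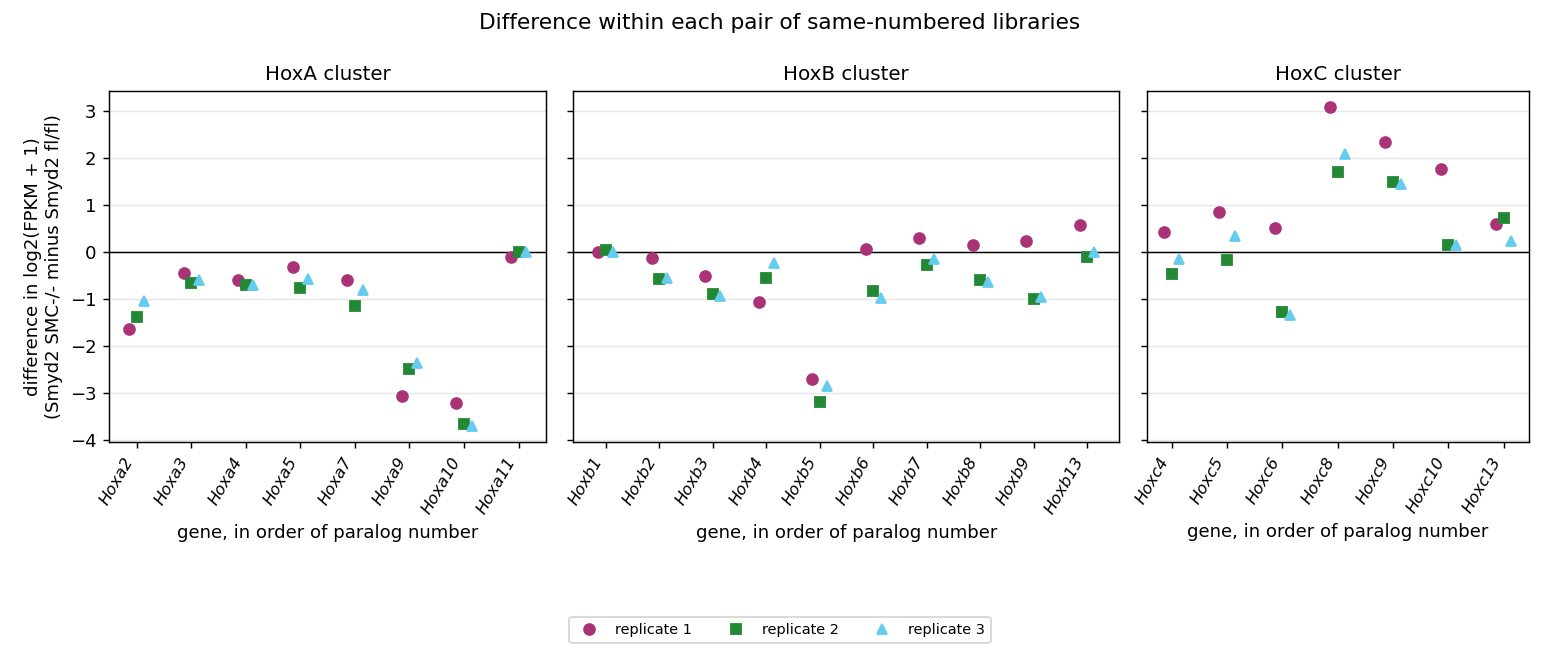
Difference in log2(FPKM + 1) between the Smyd2 SMC-/- and the Smyd2 fl/fl library of the same replicate number, for Hox genes by cluster and paralog number. Hoxa9, Hoxa10 and Hoxb5 are far below 0 in all 3 pairs, whereas Hoxb6 to Hoxb9, Hoxc4 and Hoxc6 are above 0 in replicate 1 and below 0 in replicates 2 and 3.

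Summed over the members of a cluster, HoxA had 198, 156 and 156 FPKM in fl/fl and 124, 72.3 and 84.7 FPKM in SMC-/-, and its genotypes did not overlap. HoxB had 196, 137 and 139.7 FPKM in fl/fl and 184, 77.8 and 80.2 FPKM in SMC-/-. HoxC had 85.5, 51.3 and 54.96 FPKM in fl/fl and 154, 38.1 and 43.3 FPKM in SMC-/-. The sums of HoxB and HoxC overlapped, as SMC-/- replicate 1 stayed near or above the fl/fl libraries while the other SMC-/- libraries were below them. As a share of all Hox FPKM, HoxC made up 17.8, 14.9 and 15.7% in fl/fl and 33.2, 20.3 and 20.8% in SMC-/-, higher in every SMC-/- library, whereas HoxA made up 41.4, 45.3 and 44.5% and 26.9, 38.4 and 40.7%, lower in every SMC-/- library.

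**Figure D4:**
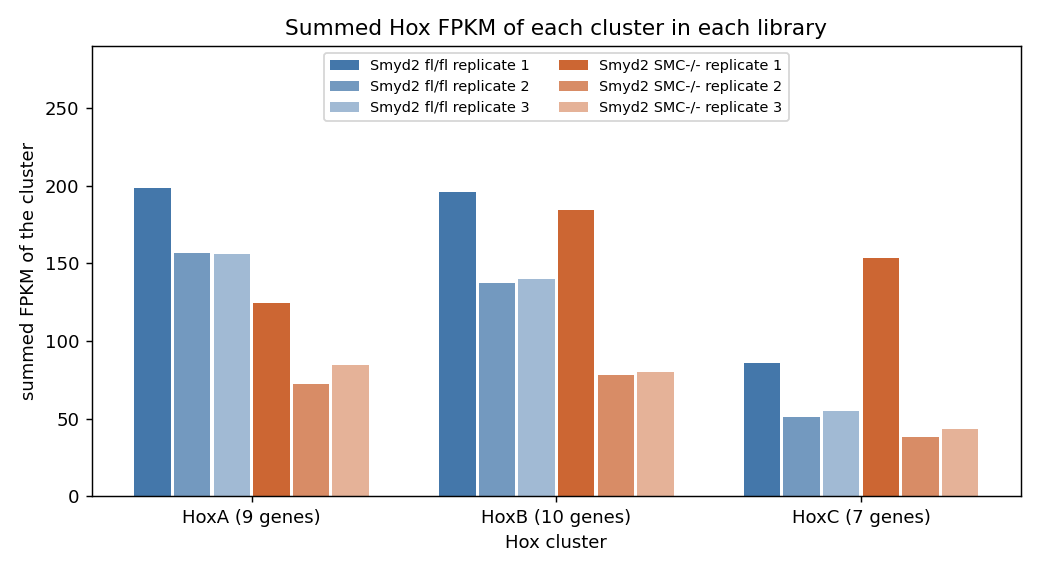
Summed FPKM of the members of each Hox cluster in each library, with bars from 0. HoxA is lower in the 3 Smyd2 SMC-/- libraries (124, 72.3 and 84.7 FPKM) than in the 3 Smyd2 fl/fl libraries, and HoxC is highest in SMC-/- replicate 1 (154 FPKM).

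Paralogs, whose proteins are alike, could go opposite ways. In paralog group 9, Hoxa9 fell, Hoxc9 rose and Hoxb9 did not pass the test, and the sum of the 3 genes was 33.8, 22.4 and 21.9 FPKM in fl/fl and 35.8, 11.04 and 11.1 FPKM in SMC-/-, most of it from Hoxb9. The sums overlapped between genotypes. Paralog group 10 was read almost wholly from Hoxa10 in fl/fl, with 13.3, 12.6 and 12.4 FPKM from Hoxa10 and Hoxc10, and had 4.32, 0.35 and 0.25 FPKM in SMC-/-, where nearly all that was left in replicate 1 came from Hoxc10. For paralog group 8, Hoxb8 and Hoxc8 summed to 34.7, 23.4 and 23.9 FPKM and 59.1, 26.1 and 28.96 FPKM, and for paralog group 5, Hoxa5, Hoxb5 and Hoxc5 summed to 34.8, 34.7 and 32.8 FPKM and 27.2, 14.7 and 17.9 FPKM. The groups 5 and 10 did not overlap between genotypes and group 8 did.

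Hox proteins bind DNA together with cofactors of the TALE homeodomain class. None of the 9 cofactor genes passed an adjusted p of 0.05 by limma with or without the replicate block, while 4 had an unadjusted p under 0.05 without the block (20.3% of all genes) and 5 with it (32.1% of all genes). The most abundant was Meis2, at 36.2, 38.2 and 41.7 FPKM in fl/fl and 48.6, 53.8 and 51.2 FPKM in SMC-/-. Every SMC-/- value of Meis2 lay above every fl/fl value. The median log2 fold change of the cofactors was 0.37, beside -0.02 for all genes. The largest was that of Meis1, at 0.84 ± 0.182 (SE, adjusted p = 0.0692 by limma). In replicates 2 and 3 alone, Meis1 and Meis2 were higher and Pbx2 lower (adjusted p = 0.0161, 0.0261 and 0.0307 by limma). In that setting 2156 of all genes were lower and 1494 higher.

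Polycomb complexes keep Hox clusters silent outside their domains, and trithorax complexes keep them active. Of 30 Polycomb genes tested, 1 was higher and none was lower in either fit, where 1.23% of all genes were higher and 1.21% lower without a block and 4.72% and 5.72% with it. An unadjusted p under 0.05 was found for 5 of them without the block (20.3% of all genes). The gene that rose was Cbx7, a chromodomain reader of histone H3 lysine 27 methylation. It had 0.50, 0.30 and 0.31 FPKM in fl/fl and 2.17, 1.51 and 2.39 FPKM in SMC-/-. With an fl/fl mean of 0.370 FPKM, Cbx7 passed the filter on low values only through SMC-/-. Its log2 fold change was 1.13 ± 0.189 (SE, adjusted p = 0.0402 by limma). Its adjusted p was 0.0533, 0.174 and 0.175 without fl/fl replicates 1, 2 and 3, and 0.0939 and 0.183 without SMC-/- replicates 2 and 3 (0.00307 to 0.183 over 14 alternatives). The most abundant of the list, Rbbp7 and Cbx6, averaged 115 ± 8.65 and 52.0 ± 8.81 FPKM in fl/fl and 107 ± 4.06 and 70.7 ± 14.8 FPKM in SMC-/- (SD, n = 3).

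Of 16 genes of trithorax complexes and H3K27 demethylases, 1 was lower without a block (1.21% of all genes) and 2 with the replicate block (5.72% of all genes). Dpy30, a core subunit of the histone H3 lysine 4 methyltransferases, had 41.2, 37.9 and 33.8 FPKM in fl/fl and 21.4, 19.8 and 17.97 FPKM in SMC-/-. Its log2 fold change was -0.90 ± 0.132 (SE, adjusted p = 0.0269 by limma), and the adjusted p was 0.137 and 0.104 without fl/fl replicates 2 and 3 and 0.130 and 0.156 without SMC-/- replicates 2 and 3 (0.00117 to 0.156 over 14 alternatives). Psip1, a chromatin reader that tethers MLL complexes, had 40.2, 32.4 and 33.95 FPKM and 21.4, 23.2 and 22.5 FPKM and a log2 fold change of -0.64 ± 0.128 (SE, adjusted p = 0.0592 by limma and 0.0403 with the replicate block, from 0.00692 to 0.234 over 14 alternatives). Men1, the most abundant of the list, had 46.3, 35.9 and 34.7 FPKM and 40.5, 24.4 and 26.9 FPKM.

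Among 10 other regulators of Hox clusters that were tested, such as the cohesin genes, none passed by limma without a block and 3 had an unadjusted p under 0.05 (20.3% of all genes). The cohesin subunit Rad21, at 77.7 ± 10.0 and 59.9 ± 9.24 FPKM, and Aff4, at 42.6 ± 3.97 and 52.4 ± 7.27 FPKM, were the most abundant (SD, n = 3). Retinoic acid, which turns on 3′ Hox genes in embryos, was covered by 11 tested genes, of which none passed without a block, 2 had an unadjusted p under 0.05 (20.3% of all genes), and 1 was higher with the block (4.72% of all genes). That gene was Dhrs3, a retinaldehyde reductase, at 0.50, 6.27 and 5.48 FPKM and 3.66, 13.9 and 9.04 FPKM with a log2 fold change of 1.10 ± 0.700 (SE, adjusted p = 0.445 by limma and 0.0445 with the replicate block, from 0.0168 to 0.719 over 14 alternatives). The fold change of Dhrs3 was 0.37 without fl/fl replicate 1 and 0.73 without SMC-/- replicate 2, and 1.56 without SMC-/- replicate 1. Without the block, Aldh1a2 and Rara had the unadjusted p under 0.05. Aldh1a2, which passed the filter on low values only through SMC-/-, had 0, 0.02 and 0 FPKM and 0.42, 5.68 and 3.32 FPKM. Rara had 18.62, 16.45 and 17.22 FPKM and 11.19, 13.03 and 13.75 FPKM. Their log2 fold changes were 1.78 ± 0.540 and -0.44 ± 0.133 (SE, adjusted p = 0.138 and 0.139 by limma). In replicates 2 and 3 alone, Aldh1a2 and Aldh1a3 were higher and Rara did not pass (adjusted p = 0.000303, 0.00606 and 0.0554 by limma). Aldh1a3, with an fl/fl mean of 0.470 FPKM, also passed the filter on low values only through SMC-/-. The most abundant genes of the list were Aldh1a1, at 62.6, 148 and 122 FPKM and 10.4, 148 and 138 FPKM with its lowest value in SMC-/- replicate 1, and the receptor gene Rarg, at 79.6, 77.3 and 77.2 FPKM and 85.3, 62.1 and 67.1 FPKM.

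Genes around the clusters were read to see how far the differences reached beyond the Hox genes. Of 24 tested neighbours, none passed the test without a block, 2 had an unadjusted p under 0.05 (20.3% of all genes), and their log2 fold changes ran from -0.78 to 0.91 with a median of -0.06. Jazf1, which lies beyond the 5′ side of HoxA, was the 1 neighbour higher with the replicate block (4.72% of all genes), at 0.68, 1.38 and 1.82 FPKM in fl/fl and 2.65, 4.07 and 3.02 FPKM in SMC-/- and a log2 fold change of 0.91 ± 0.249 (SE, adjusted p = 0.116 by limma and 0.0460 with the block, from 0.0126 to 0.306 over 14 alternatives). The most abundant neighbours were the RNA-binding protein genes Hnrnpa1, beside HoxC, at 295, 298 and 307 FPKM and 245, 141 and 151 FPKM, and Hnrnpa2b1, at 211, 133 and 139 FPKM and 225, 117 and 121 FPKM. Hnrnpa1 had a log2 fold change of -0.78 ± 0.221 (SE, adjusted p = 0.121 by limma). In replicates 2 and 3 alone, Hnrnpa1, Calcoco1 and Hibadh were lower and Jazf1 higher (adjusted p = 0.000688, 0.0251, 0.0411 and 0.0126 by limma). In that setting 2156 of all genes were lower and 1494 higher. The 19 noncoding and antisense genes of the clusters on the list were not analysed here.

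Because Hox codes differ between cell types of the vessel wall, markers of other cells were read beside them. Fewer cells of a type and less RNA per cell cannot be told apart in these bulk libraries. The 6 fibroblast and adventitia markers summed to 248, 540.3 and 456 FPKM in fl/fl and 44.7, 429.9 and 386 FPKM in SMC-/-, and Dcn (decorin) was the most abundant, at 13.9, 311 and 257 FPKM and 25.6, 383 and 350.5 FPKM, low in both replicate 1 libraries. In this list 1 of 6 genes was lower without a block (1.21% of all genes) and 2 with it (5.72% of all genes), and the fold changes of 4 were negative and of 2 positive. Dpt (dermatopontin, an adventitial matrix protein) fell from 144, 90.3 and 65.5 FPKM in fl/fl to 3.31, 1.15 and 0.63 FPKM in SMC-/-, a log2 fold change of -5.28 ± 0.427 (SE, adjusted p = 0.00417 by limma). Cd34 had 71.1, 98.2 and 95.02 FPKM and 3.39, 23.6 and 15.9 FPKM, with a log2 fold change of -2.85 ± 0.608 (SE, adjusted p = 0.0669 by limma, 0.0269 with the replicate block and 0.0121 without SMC-/- replicate 1, from 0.000230 to 0.210 over 14 alternatives). Pdgfra had 18.1, 31.9 and 29.8 FPKM and 11.8, 4.85 and 7.10 FPKM, with a log2 fold change of -1.66 ± 0.338 (SE, adjusted p = 0.0601 by limma), and Pi16 had 1.26, 7.59 and 8.18 FPKM and 0.37, 2.99 and 1.08 FPKM. Lum had 0, 1.31 and 1.17 FPKM and 0.26, 14.5 and 10.4 FPKM, with a log2 fold change of 1.82 ± 0.950 (SE, adjusted p = 0.342 by limma). The list thus did not go 1 way: Dpt, Cd34 and Pdgfra were lower in SMC-/- without overlap and Pi16 in all 3 same-numbered pairs, while Dcn and Lum were higher in all 3 pairs. The part of these markers in the Hox result was not tested.

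Mesothelial markers summed to 14.2, 109.9 and 113 FPKM in fl/fl and 19.6, 162 and 94.2 FPKM in SMC-/-, low in both replicate 1 libraries. Of the 4 genes none passed without a block, or had an unadjusted p under 0.05 (20.3% of all genes), and 2 were higher with the replicate block (4.72% of all genes). They were Upk3b, at 9.02, 38.5 and 38.2 FPKM and 14.5, 121 and 67.0 FPKM (log2 fold change 1.01 ± 0.867 SE, adjusted p = 0.579 by limma and 0.0491 with the block, from 0.0305 to 0.881 over 14 alternatives), and Wt1, at 0.68, 2.80 and 2.73 FPKM and 1.98, 5.97 and 5.23 FPKM (log2 fold change 0.81 ± 0.448 SE, adjusted p = 0.369 by limma and 0.0330 with the block, from 0.00429 to 0.679 over 14 alternatives). Left-out libraries moved both fold changes, to 0.36 and 0.43 without fl/fl replicate 1, 0.38 and 0.58 without SMC-/- replicate 2, 0.80 and 0.66 without SMC-/- replicate 3, and 1.87 and 1.20 without SMC-/- replicate 1. Lrrn4, the next most abundant after Upk3b, had 3.96, 42.6 and 47.9 FPKM and 2.44, 25.1 and 15.1 FPKM. In replicates 2 and 3 alone, Upk3b and Wt1 were higher and Lrrn4 and Msln lower (adjusted p = 0.0305, 0.00429, 0.0159 and 0.000965 by limma), so the list went both ways. The 4 adipocyte markers summed to 6.27, 5.04 and 3.12 FPKM in fl/fl and 119, 5.39 and 6.07 FPKM in SMC-/-, and Fabp4 accounted for 119 FPKM in SMC-/- replicate 1, the library that also led in Hoxc6, Hoxc10 and Hoxb6. Adipoq was at or below 0.09 FPKM in every library, and Plin1 and Cidec at or below 0.03 FPKM. The part of these markers in the Hox values of replicate 1 was not tested.

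Cdh5 and Ptprc, defining markers of endothelial cells and leukocytes, were near 0, while some other markers of these cells, at low levels, did not overlap between genotypes. The 6 endothelial markers summed to 1.42, 1.83 and 2.04 FPKM and 1.75, 5.40 and 2.99 FPKM, with Kdr and Pecam1 the most abundant and Cdh5 at or below 0.01 FPKM. Kdr was higher in every SMC-/- library, at 0.47, 0.58 and 0.84 FPKM and 0.96, 5.15 and 2.96 FPKM, with a log2 fold change of 1.16 ± 0.409 (SE, adjusted p = 0.186 by limma), and Pecam1 was lower in every SMC-/- library, at 0.56, 0.88 and 0.92 FPKM and 0.12, 0.18 and 0 FPKM. The 6 leukocyte markers summed to 4.95, 8.12 and 8.96 FPKM and 5.62, 7.70 and 6.69 FPKM, led by Cd68 and Lyz2, with Ptprc at or below 0.02 FPKM. Csf1r was higher in every SMC-/- library, at 0.58, 0.53 and 0.48 FPKM and 1.66, 1.42 and 1.14 FPKM, with a log2 fold change of 0.65 ± 0.168 (SE, adjusted p = 0.102 by limma). Sox10, a defining gene of Schwann cells, was read at 0.02 FPKM in SMC-/- replicate 1 only. The 3 cardiomyocyte markers in the table summed to 29.8, 9.98 and 8.90 FPKM and 4.18, 17.8 and 13.1 FPKM, of which Tnnt2, lower in every SMC-/- library, had 29.1, 8.17 and 7.51 FPKM and 3.44, 4.13 and 4.43 FPKM and Myl7 had 0, 1.62 and 1.26 FPKM and 0.44, 13.5 and 8.50 FPKM. Skeletal muscle actin, Acta1, was at or below 0.42 FPKM, and of the Y-linked genes Eif2s3y was at or below 0.10 FPKM and Uty at or below 0.02 FPKM in every library. None of these lists had a gene with an adjusted p under 0.05 by limma in either fit. Without the block, an unadjusted p under 0.05 was found for 1 of 1 tested endothelial, 1 of 3 leukocyte and 1 of 2 cardiomyocyte genes (20.3% of all genes). With replicates 2 and 3 alone Kdr was higher (adjusted p = 0.00260 by limma), while the leukocyte and cardiomyocyte lists went both ways. Csf1r and Myl7 were higher and Lyz2 and Tnnt2 lower, at an adjusted p of 0.0192, 0.000415, 0.00294 and 0.00406 by limma, and Cd68 did not pass (adjusted p = 0.801). The part of these markers in the Hox values was not tested.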

How the data were processed

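Genotype and replicate number of the 6 libraries were taken from the sample labels. The authors sequenced on a BGISEQ-500 instrument, cleaned reads with SOAPnuke, aligned with HISAT and Bowtie2, quantified with RSEM, and deposited FPKM to 2 decimals for 18112 genes. The genome build, tool versions and use of strand are not given in the sources used here. Members and gene lists were chosen with earlier results of these data known.

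The test took log2 of FPKM with a pseudocount of 1 for 12565 genes that averaged at least 0.5 FPKM over the 6 libraries. Genotypes were compared by limma 3.58.1 (R 4.3.3; eBayes with trend and robust options), and p-values were adjusted by Benjamini-Hochberg over all genes tested. The code was tested on simulated data. Replicate numbers come from the labels. Deviations from the group means correlated across genes by 0.61, 0.46 and 0.53 between libraries numbered 1, 2 and 3, by 0.44 and 0.46 between replicates 2 and 3 of opposite genotypes, and by -0.56 to -0.51 between replicate 1 and the others. These values set replicate 1 apart and do not show pairing between replicates 2 and 3. The study names no pairing, so no block was used, and a replicate block was an alternative. Other alternatives were a pseudocount of 0.1, no filter, a mean of at least 1 FPKM, blocking replicate 1 against the rest, replicates 2 and 3 alone, leaving out each library, TPM, quantile normalization, and a fold change over 2 with an adjusted p under 0.01. Medians with each library left out were added after the data were seen.

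Tested members are named with their statistics. Values in every library are given for members with an adjusted p under 0.05 in either fit, members whose groups do not overlap, the 3 most abundant of each cluster over all libraries and members under the filter. Of other lists, genes with an adjusted p under 0.05 in either fit and the 2 most abundant are named, and other named genes were chosen after their values were seen. Some genes that meet this rule are not reported here.

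Depth was estimated from 4343 genes with 1 transcript of known length, less 75 bases. In each library 70.6% to 73.8% of low values came within 0.15 of a whole number of fragments, against 30% by chance, so fragment numbers are approximate and cover counting error only. Gene positions came from GENCODE M21 by NCBI Gene number and promoters from RefSeq by symbol. Figures and tables used Python 3.11.15, matplotlib 3.10.9, pandas 2.3.3 and numpy 2.4.6.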

Additional observations from a re-analysis of the deposited data

How the results depend on the processing

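Under the replicate block, 8 Hox genes were lower, with 719 of all genes lower and 593 higher, and apart from the calls given with the results it changed no other call of a named gene. A block for replicate 1 against replicates 2 and 3 gave 10 Hox genes lower and 1398 lower and 1152 higher of all genes, and replicates 2 and 3 alone gave 14 Hox genes lower and 2156 lower and 1494 higher of all genes. TPM gave 99 genes lower and 247 higher. At a fold change over 2 and an adjusted p under 0.01, 0 Hox genes were higher, and 26 genes were lower and 27 higher, since these cutoffs are stricter. Leaving out a library gave 3 to 8 Hox genes lower and 0 to 2 higher, and 16 to 313 of all genes lower and 16 to 373 higher, in fits with fewer libraries. Other counts stayed within 1.5 times.

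Of 474 values of 34 named genes under the alternatives, 390 kept direction and side of the threshold, 57 gained the call, 20 lost it and 7 changed sign. The sign changed with TPM for Hoxb7 (0.07) and Hoxc4 (0.04). Leaving out a library gave -0.15 to 0.01 for Hoxb7, -0.46 to 0.23 for Hoxc4 and -0.26 to 0.77 for Hoxc5. The median of HoxC ranged from -0.11 to 0.88. The cause was not tested. Medians of HoxA and HoxB stayed negative, at -0.94 to -0.60 and -0.95 to -0.29. Depth limits the genes near 0: the SMC-/- values of Hoxa10 and Hoxb5 rest on few fragments, and their fold changes move with the pseudocount.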
